A study of Mus musculus with 4 samples.

Results

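The genes described here are 38 that carry, shape or restrain signalling inside a T cell below its antigen receptor (TCR): kinases, adaptors, exchange factors, transcription factors and the phosphatases and other brakes set against them. They were found as the non-control probes of 4 Agilent arrays whose printed gene name equals one of the 38, which gave 74 probes; the arrays carry 28482 gene names in all. The CD3 chains, GADS and the CBL ligases were left out of the choice. By their textbook roles 24 of the genes are positive mediators, 11 are brakes, and 3 (Ptprc, Themis and Cd6) are known for both.

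The RNA came from CD4+CD8+ double-positive (DP) thymocytes, sorted from untreated, sex-matched littermate mice aged 6 to 12 weeks. All mice carried Usp8 alleles flanked by loxP sites. The USP8ff group, the control, had no Cre, and the USP8ff_CD4Cre group had in addition Cre driven by Cd4 regulatory sequences, which deletes Usp8, the gene of a ubiquitin-removing protease. Each group had 2 samples, each pooled from 2 mice (8 mice in all). The slide was read from the header of 1 array only, so whether the 4 samples shared a slide is not given. No group had Cre without the floxed alleles, so that an effect of Cre and one of the deletion cannot be told apart. The p-values measure the spread between pools of mice, and 2 arrays per group set the precision.

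When the TCR binds its ligand, the kinases LCK and FYN phosphorylate the receptor's CD3 chains, and ZAP-70 docks there and phosphorylates the adaptors LAT and SLP-76. TEC family kinases and phospholipase C-gamma gather on these adaptors, and from there calcium, RAS and protein kinase C-theta switch on NFAT, ERK and NF-kB. Brakes act at each step: CSK and tyrosine phosphatases turn LCK and ZAP-70 down, SLAP adaptors lower the amount of receptor, and diacylglycerol kinases remove the lipid that RAS activation needs. DP thymocytes depend on the strength of this signal, since a weak one spares them, a strong one kills them and none leaves them to die.

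Signals are given as log2 of the background-corrected spot signal over the 75th percentile of the same array, so that a difference of 1 is a 2-fold change. Levels of different genes cannot be set against each other on this scale, because each probe binds with its own strength. A difference is USP8ff_CD4Cre minus USP8ff, with its standard error (SE), 95% interval and p from limma, a linear model with a spread shared across genes. A probe was kept where both arrays of either group showed it well above background, and the brightest kept probe stood for its gene. In bulk RNA, fewer cells with a transcript and less of it per cell cannot be told apart.

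The results turn on what single 60-base probes measured. Shown first are the probes that stand for Ubash3b, Txk and Fyn, the members with the smallest p-values, by the first 30 of their bases, 5′ to 3′, as printed on the array. On mm9 they are listed at chr9:40822099-40822158, chr5:73087262-73087321 and chr10:39284539-39284598. Ubash3b and Txk are listed with descending and Fyn with ascending positions.
Ubash3b: aagcagttaaggagattgacatttgaaagg
Txk: taggaaacatagctttggaaacctatgtga
Fyn: ctagtcacgagttttagtgccagtttttag

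Whole probes are shown for the core of the pathway, Zap70 at chr1:36838210-36838269 (ascending), Lat at chr7:133507719-133507778 (descending) and Plcg1 at chr2:160587192-160587344 (ascending). The listed span of the Plcg1 probe, 153 bases, is longer than the probe itself. Also shown are the dimmer of 2 Csk probes at chr9:57475817-57475876, the dimmer of 2 Trat1 probes at chr16:48734961-48735020 (both descending) and 1 of 3 kept Themis probes at chr10:28502071-28502130 (ascending), each set beside its gene's brightest probe below. No annotation of mm9 was used here, so the exon of each probe is not given.
Zap70: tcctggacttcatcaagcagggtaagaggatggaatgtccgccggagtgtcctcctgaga
Lat: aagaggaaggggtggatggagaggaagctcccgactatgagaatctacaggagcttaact
Plcg1: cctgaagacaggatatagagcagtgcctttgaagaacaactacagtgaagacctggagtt
Csk: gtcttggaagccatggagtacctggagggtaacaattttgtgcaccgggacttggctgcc
Trat1: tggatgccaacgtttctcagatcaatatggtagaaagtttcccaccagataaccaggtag
Themis: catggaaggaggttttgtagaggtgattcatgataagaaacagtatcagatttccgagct

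Between 18533 and 20147 of 41174 probes per array were well above background, with 0 saturated spots. The Usp8 probe had signals of -0.23 and -0.40 in USP8ff against -1.03 and -1.23 in USP8ff_CD4Cre, which left 56.9% of the control level (difference -0.81 ± 0.13, SE; adjusted p = 0.60 in limma). All 10 DP thymocyte markers (Cd4, Cd8a, Rag1, Dntt and others) were measured, with a median difference of -0.11. Of the 8 mature single-positive markers 7 were measured, with a median of -1.003, while their summed level, in multiples of the array's 75th percentile, was 93.5 to 100.2 in USP8ff and 103 to 114 in USP8ff_CD4Cre. Of the macrophage and dendritic cell markers 9 of 15 were measured, 8 of them with negative differences, and their summed level was 3.997 to 4.58 in USP8ff and 2.85 to 2.996 in USP8ff_CD4Cre; Csf1r, Itgax, Adgre1, H2-Aa and Tyrobp were not well above background. Of the NK and innate markers 5 of 9 were measured, with a median of -0.86 and values of -2.09 (Nkg7), -2.02 (Il2rb), -0.86 (Prf1), 0.15 (Tbx21) and 0.42 (Gzma). Their summed level was 4.28 to 4.37 in USP8ff and 3.94 to 5.29 in USP8ff_CD4Cre, and Klrd1, Klrb1c, Klrk1 and Ncr1 were not well above background. Among the others, 2 of 5 B cell, 2 of 6 erythroid and 3 of 6 regulatory T cell markers were measured, the last without Foxp3, Il2ra or Ctla4. The B cell values were -0.75 (Blnk) and -0.08 (Cd79b), and the erythroid ones -0.30 (Car1) and 0.81 (Hba-a2). Hba-a2 stood at -3.21 and -1.58 in the USP8ff_CD4Cre pools. The regulatory T cell values were -1.94 (Gpr83), 0.23 (Ikzf2) and -0.20 (Tnfrsf4). The part of these cells in the results below was not tested.

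Of the 38 genes 37 were measured, each on a probe that was well above background on all 4 arrays. In limma 0 of them passed an adjusted p of 0.05 over all genes, where 0% of 13062 genes did (smallest adjusted p = 0.29). At an unadjusted p of 0.05, 2 members passed (5.41%), against 7.43% of all genes: the phosphatase gene Ubash3b and the kinase gene Txk, both lower in USP8ff_CD4Cre. Both USP8ff_CD4Cre pools lay below both USP8ff pools for 7 members (18.9%: Ubash3b, Txk, Fyn, Dgka, Ptpn22, Plcg1 and Lcp2) and above them for 2 (5.41%: Was and Grb2), against 16.3% and 24.3% of all genes, or 40.6% in either direction. The 95% interval of the difference lay within 1.5-fold either way for 29 members (78.4%), against 71.2% of all genes, so that for those 29 a change larger than 1.5-fold lay outside the interval. It reached past 1.5-fold for the other 8: Ubash3b, Txk, Fyn, Pag1, Nfatc1, Themis, Ptpn6 and Trat1.

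**Figure D1:**
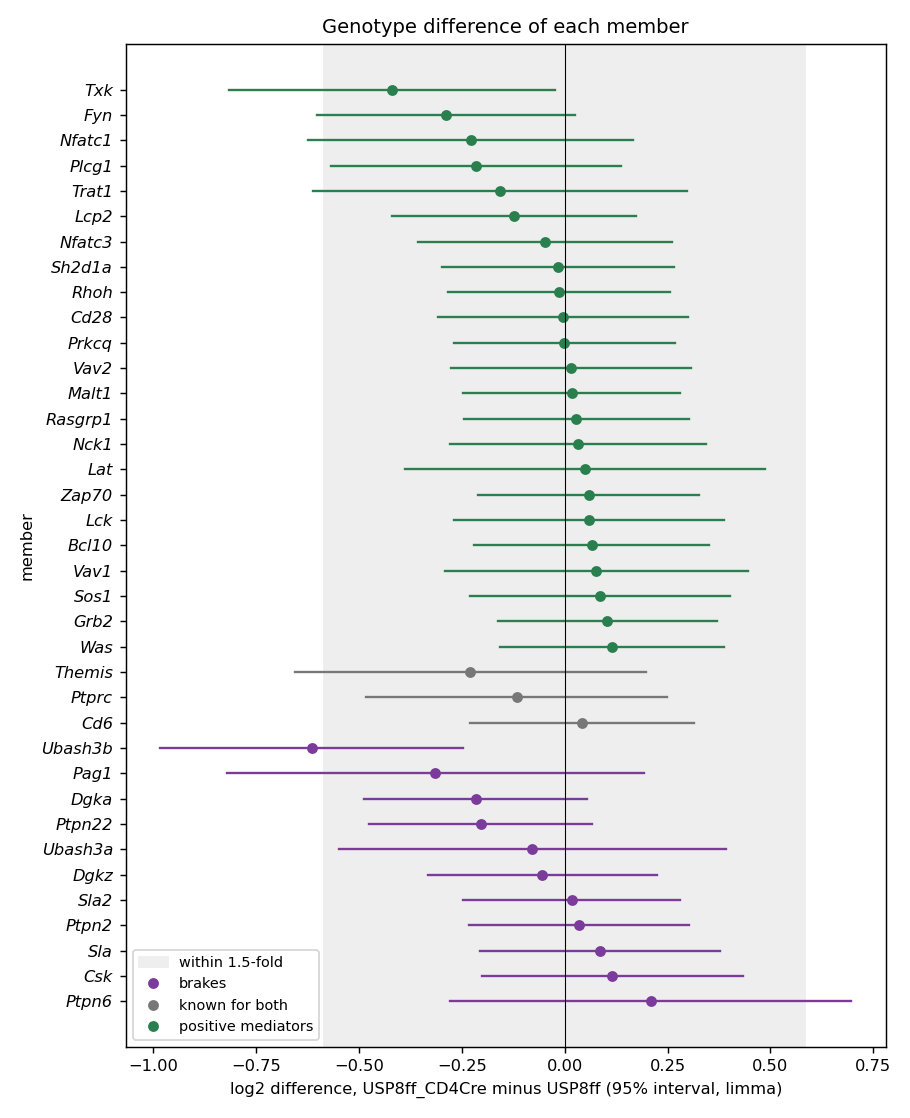
Log2 difference between genotypes (USP8ff_CD4Cre minus USP8ff) for the 37 measured members, with the 95% interval from limma, 2 arrays per group. Green points are positive mediators, grey points members known for both and purple points brakes, and the grey band marks 1.5-fold either way. The intervals of Ubash3b (-0.98 to -0.25) and Txk (-0.82 to -0.02) are the only ones of the 37 that leave out 0.

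The kinases that start and carry the signal did not move as one. Lck, whose product phosphorylates the CD3 chains and ZAP-70, had signals of 7.12 and 7.37 in USP8ff and 7.28 and 7.33 in USP8ff_CD4Cre. Both USP8ff_CD4Cre values lay between the USP8ff values, and the difference was 0.06 ± 0.13 (SE; interval -0.27 to 0.39), or -0.018 with quantile normalization. Zap70, on the probe shown above, had 4.80 and 4.74 in USP8ff and 4.80 and 4.86 in USP8ff_CD4Cre. The groups overlapped, and the difference was 0.06 ± 0.11 (interval -0.21 to 0.33), or -0.024 with quantile normalization. For both genes the pools of a group stood further apart than the groups.

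Fyn encodes the other SRC family kinase at the receptor, with functions that overlap those of LCK in thymocytes. It had signals of 0.04 and 0.02 in USP8ff and -0.15 and -0.37 in USP8ff_CD4Cre. The USP8ff pools were close to each other, both USP8ff_CD4Cre pools lay below them, and replicate 2 of USP8ff_CD4Cre was the lowest. The difference was -0.29 ± 0.12 (interval -0.60 to 0.02; adjusted p = 0.67 in limma), and Fyn did not pass an unadjusted p of 0.05.

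Txk encodes a kinase of the TEC family, which phosphorylates phospholipase C-gamma. Its brighter probe had 4.80 and 4.98 in USP8ff and 4.63 and 4.31 in USP8ff_CD4Cre, and its other probe, listed 268 bases away, had 1.68 and 1.66 against 1.47 and 1.20. On both probes both USP8ff_CD4Cre pools lay below both USP8ff pools, with replicate 2 of USP8ff_CD4Cre the lowest. The differences were -0.42 ± 0.16 (74.8% of the control level; adjusted p = 0.67 in limma) and -0.34. Txk no longer passed an unadjusted p of 0.05 without USP8ff replicate 1 (difference -0.51), without USP8ff replicate 2 (difference -0.33), without USP8ff_CD4Cre replicate 2 (difference -0.26) or with no filter on dim probes.

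The adaptors on which the signal is assembled did not pass the test either. Lat, the membrane scaffold that ZAP-70 phosphorylates, had signals of 6.43 and 6.86 in USP8ff and 6.65 and 6.74 in USP8ff_CD4Cre. The USP8ff pools enclosed the other group, and the difference was 0.05 ± 0.17 (interval -0.39 to 0.49), or -0.037 with quantile normalization. Lcp2, which encodes SLP-76, the cytosolic partner of LAT, had 4.04 and 4.06 in USP8ff and 4.02 and 3.84 in USP8ff_CD4Cre. The groups nearly met, and the difference was -0.12 ± 0.12 (adjusted p = 0.81 in limma).

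Among the other adaptors, Grb2, which brings the RAS exchange factor SOS to LAT, had 5.06 and 5.01 in USP8ff and 5.16 and 5.11 in USP8ff_CD4Cre, a difference of 0.10 ± 0.10. Its other probe, which shares the 20 bases ATTTTGGAATTGGAGATATC with the first, had -0.01. On that probe the groups overlapped. Nck1, an adaptor to the actin cytoskeleton, had 0.03 on 1 probe and -0.06 on the other. Sh2d1a, the gene of the SLAM receptor adaptor SAP, had -0.02 on its bright probe and -0.28 on a dimmer one. Its groups overlapped on the bright probe and not on the dimmer one. Rhoh, a GTPase that helps ZAP-70 reach the membrane, had -0.01 on its single probe.

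Trat1 encodes TRIM, a small transmembrane adaptor of the TCR complex. Its brightest probe had 3.59 and 4.05 in USP8ff and 3.71 and 3.62 in USP8ff_CD4Cre, and the probe shown above had 3.66 and 3.96 against 3.58 and 3.40. On the first the groups overlapped (difference -0.16 ± 0.18), and on the other they did not (difference -0.33). On both probes USP8ff replicate 2 was the highest of the 4 arrays, and without it the difference of the brightest probe was 0.07. Without USP8ff replicate 1 it was -0.39, and Trat1 passed an unadjusted p of 0.05.

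Downstream of the adaptors, Plcg1 encodes phospholipase C-gamma, which splits a membrane lipid into the messengers for calcium and for RAS. The probe shown above had -0.426 and -0.21 in USP8ff and -0.64 and -0.432 in USP8ff_CD4Cre, groups that nearly met, with a difference of -0.22 ± 0.14. The other kept probe, 29049 bases away in the listing, had -2.70 and -2.95 in USP8ff and -2.56 and -2.68 in USP8ff_CD4Cre, a difference of 0.21. The probes gave opposite signs with groups that did not overlap on either, and no direction can be given for Plcg1.

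Of the exchange factors and actin regulators, Was, the gene of the Wiskott-Aldrich syndrome protein that drives actin branching, had 3.74 and 3.82 in USP8ff and 3.92 and 3.87 in USP8ff_CD4Cre. Both USP8ff_CD4Cre pools were above both controls, by a difference of 0.11 ± 0.11 (adjusted p = 0.81 in limma), and its other probe had 0.09. Vav1, the main RAC exchange factor of T cells, had 0.08 and 0.06 on its probes, and its relative Vav2 0.02 and -0.07. The RAS exchange factor genes Rasgrp1, which answers to diacylglycerol, and Sos1 had 0.03 and 0.09, with -0.16 on the other Rasgrp1 probe. With Plcg1 counted in, all 6 genes of this group had intervals within 1.5-fold on their brightest kept probes.

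The co-stimulatory receptor gene Cd28 had a difference of -0.0037 on its bright probe and -0.07 on a dimmer one. In the branch to NF-kB, Prkcq, which encodes protein kinase C-theta, had -0.00076 and 0.01, Bcl10 had 0.07 and 0.17, and Malt1, the protease partner of BCL10, had 0.02 and -0.14. The interval of each of these 4 genes lay within 1.5-fold.

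Of the calcium-dependent NFAT factors, Nfatc1 had 1.303 and 1.01 in USP8ff and 1.05 and 0.81 in USP8ff_CD4Cre on its brightest probe. The groups overlapped, with a difference of -0.23 ± 0.15 (-0.37 without USP8ff replicate 2 and -0.084 without USP8ff replicate 1), and the other probe, 41715 bases away, had 0.15. Nfatc3, the NFAT gene known for its role in DP thymocytes, had -0.05 and 0.08 on its probes. Nfatc2 was not measured: its 4 probes, of which 2 share 19 bases, were well above background on 0 arrays.

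**Figure D2:**
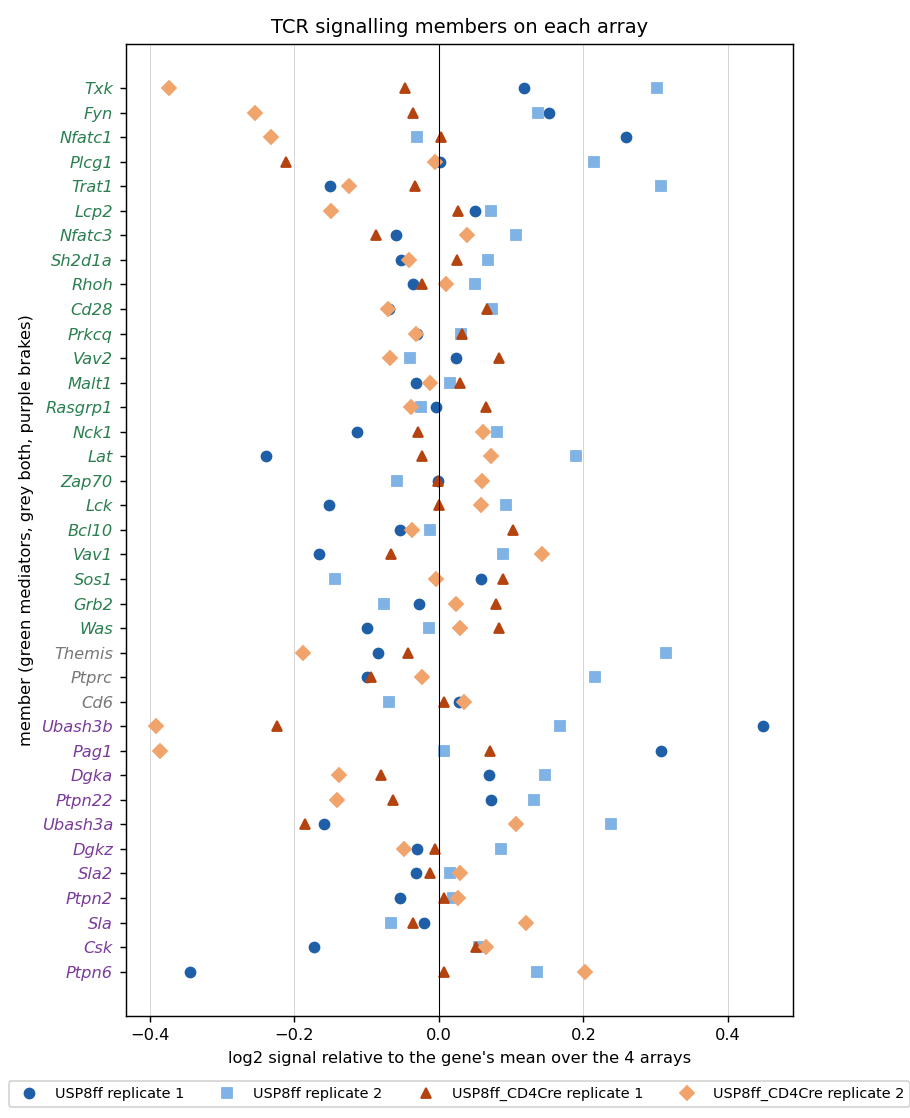
Log2 signal of the 37 measured members on each array, relative to the gene's own mean over the 4 arrays; each symbol is 1 pool of 2 mice. Blue symbols are USP8ff and orange symbols USP8ff_CD4Cre, and gene names are green for mediators, grey for members known for both and purple for brakes. For Ubash3b, Txk and Fyn all blue symbols lie to the right of all orange ones, while for most members the colours mix, and USP8ff replicate 1 lies left of USP8ff replicate 2 for 26 of 37.

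On the brightest probes of the 3 members known for both roles the groups overlapped. Ptprc encodes CD45, the phosphatase that frees LCK from its inhibitory phosphate and can also remove its activating one. It had 6.59 and 6.91 in USP8ff and 6.60 and 6.67 in USP8ff_CD4Cre, so that USP8ff replicate 2 stood above the other 3. The difference was -0.12 ± 0.14 (interval -0.48 to 0.25), 4 kept probes ranged from -0.17 to -0.10, while leaving out USP8ff replicate 2 gave 0.04 and leaving out USP8ff replicate 1 gave -0.27. Cd6, a surface receptor that both docks SLP-76 and damps signalling, had 0.04 and 0.02 on its probes, and -0.043 on the first with quantile normalization.

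Themis, whose product binds SHP-1 and GRB2 and is needed for DP thymocytes to mature, had 3.46 and 3.86 in USP8ff and 3.51 and 3.36 in USP8ff_CD4Cre. USP8ff replicate 2 was again the highest, and the groups overlapped on this probe but not on the one shown above (0.24 and 0.49 against 0.22 and 0.16). The difference was -0.23 ± 0.17 (adjusted p = 0.75 in limma), and the 3 kept probes ranged from -0.27 to -0.17, the one shown above at -0.17. On the brightest probe it was -0.43 without USP8ff replicate 1, where Themis passed an unadjusted p of 0.05, and -0.031 without USP8ff replicate 2.

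Among the brakes, Ubash3b gave the smallest p of all members. It encodes STS-1, a phosphatase that acts on ZAP-70. Its single kept probe had -0.60 and -0.88 in USP8ff and -1.27 and -1.44 in USP8ff_CD4Cre. Both USP8ff_CD4Cre pools lay below both controls, and the gap between the groups at their nearest pools was larger than the gap between the pools of either group. The difference was -0.62 ± 0.14 (interval -0.98 to -0.25), which is 65.3% of the control level with a p of 0.0076 and an adjusted p of 0.66 in limma. It ranged from -0.76 to -0.47 over the alternatives run, with an unadjusted p between 0.0029 and 0.041 and an adjusted p between 0.36 and 0.9997.

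Its relative Ubash3a, which encodes STS-2, did not share this pattern: its probes had -0.08 ± 0.18 and 0.06, and its interval (-0.55 to 0.39) lay within 1.5-fold. Whether the differences of both genes differ from each other was not tested. Ptpn22 encodes PEP, a phosphatase that works with CSK against LCK and ZAP-70. It had 4.02 and 4.08 in USP8ff and 3.89 and 3.81 in USP8ff_CD4Cre. The groups did not overlap, and the difference was -0.20 ± 0.11 (adjusted p = 0.70 in limma).

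Ptpn6 encodes SHP-1, a phosphatase recruited by inhibitory receptors. It had 3.96 and 4.44 in USP8ff and 4.31 and 4.51 in USP8ff_CD4Cre, with USP8ff replicate 1 below the other 3. The difference was 0.21 ± 0.19 (interval -0.28 to 0.70), its other probe had 0.15, and without USP8ff replicate 1 it was -0.03. Without USP8ff replicate 2 it was 0.45, and Ptpn6 passed an unadjusted p of 0.05. Ptpn2, which acts on SRC and JAK family kinases, had 0.03 on its bright probe and -0.37 on a dim one. The dim probe was well above background on 2 USP8ff arrays and 1 USP8ff_CD4Cre array. It was thus kept only through the group where it was higher, which favours a negative difference.

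Csk encodes the kinase that places the inhibitory phosphate on LCK and FYN, and Pag1 a membrane anchor for it. Csk had 2.11 and 2.34 in USP8ff and 2.33 and 2.35 in USP8ff_CD4Cre, and its probe shown above had 1.68 and 1.82 against 1.94 and 1.99. The groups overlapped on the brighter probe (difference 0.12 ± 0.12) and not on the other (difference 0.21), and USP8ff replicate 1 was the lowest on both. Pag1 had 0.93 and 0.63 in USP8ff and 0.69 and 0.24 in USP8ff_CD4Cre. On this probe the groups overlapped (difference -0.31 ± 0.20, or -0.087 without USP8ff_CD4Cre replicate 2), and on a dimmer one they did not (difference -0.19). Without USP8ff_CD4Cre replicate 1 the brighter probe had -0.54, and Pag1 passed an unadjusted p of 0.05.

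The diacylglycerol kinases end the lipid signal that activates RASGRP1. Dgka had 5.62 and 5.69 in USP8ff and 5.47 and 5.41 in USP8ff_CD4Cre. The groups did not overlap, and the difference was -0.22 ± 0.11 (86.0% of the control level; adjusted p = 0.70 in limma), while Dgkz had -0.05 ± 0.11. The SLAP adaptor genes Sla and Sla2, whose products target the TCR complex for degradation together with CBL, had 0.09 and 0.02 on their bright probes and -0.19 and -0.15 on their dimmer ones. With quantile normalization the bright probes had -0.021 and -0.044, so their sign depends on both probe and scaling.

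**Figure D3:**
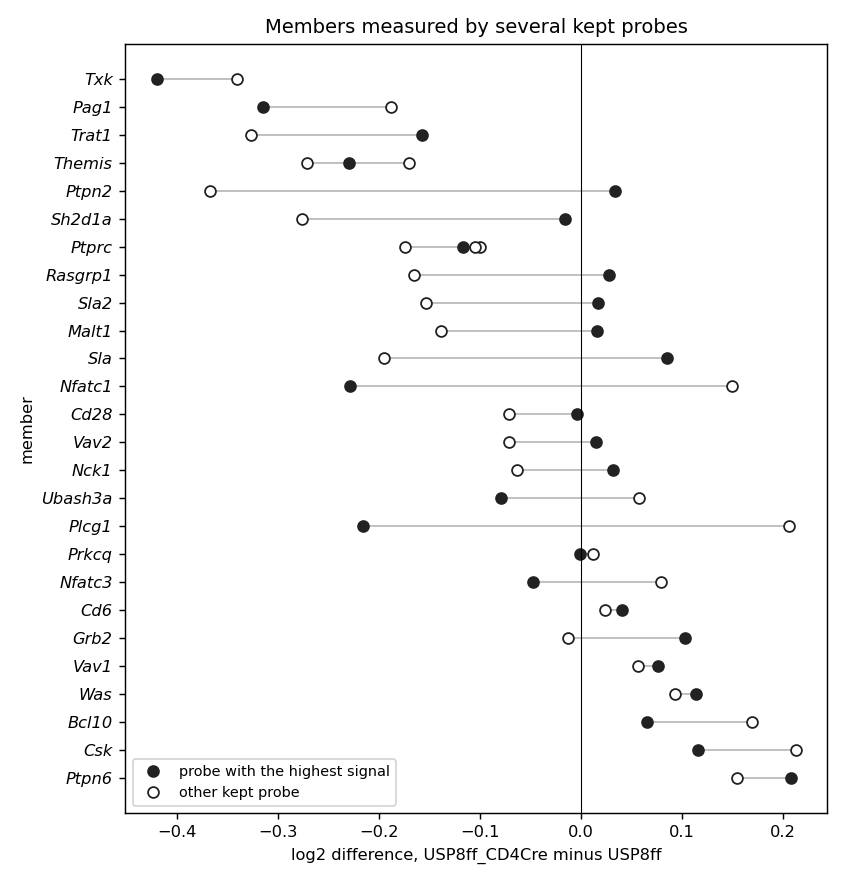
Log2 difference (USP8ff_CD4Cre minus USP8ff) on each kept probe of the 26 members with several; the filled point is the brightest probe, which stands for the gene, and open points are the others. The points of 13 members lie on both sides of 0, those of Plcg1 at -0.22 and 0.21. All points of Txk, Pag1, Trat1, Themis, Ptprc, Sh2d1a and Cd28 lie below 0. Those of Bcl10, Cd6, Csk, Ptpn6, Vav1 and Was all lie above 0.

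Of the 74 probes 66 were kept, so that 26 members were measured by several probes. In 13 of these all kept probes had the same sign, and in the other 13 they did not: Grb2, Malt1, Nck1, Nfatc1, Nfatc3, Plcg1, Prkcq, Ptpn2, Rasgrp1, Sla, Sla2, Ubash3a and Vav2, each with the values given above. Probes of a gene share each sample's RNA and are not replicates of the genotype. Ubash3b, Fyn, Dgka and Ptpn22 were each measured by a single kept probe, and Txk by 2.

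Fyn, Ptprc and Cd28 have a probe printed on 10 spots of each array, which shows the error of reading the same RNA repeatedly. The standard deviation over spots was 0.044 to 0.055 for Fyn, 0.029 to 0.052 for Ptprc and 0.025 to 0.048 for Cd28. Fyn spots ranged from -0.037 to 0.14 and from -0.049 to 0.10 in the USP8ff pools, and from -0.24 to -0.083 and from -0.43 to -0.29 in the USP8ff_CD4Cre pools. No Fyn spot of one group overlapped the other group, and the USP8ff_CD4Cre pools also stood apart from each other. The Ptprc spots of USP8ff replicate 2 (6.86 to 6.96) lay above those of every other array. Spots of an array share its RNA, so they count for n = 1 and their spread is no measure of the difference between genotypes.

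**Figure D4:**
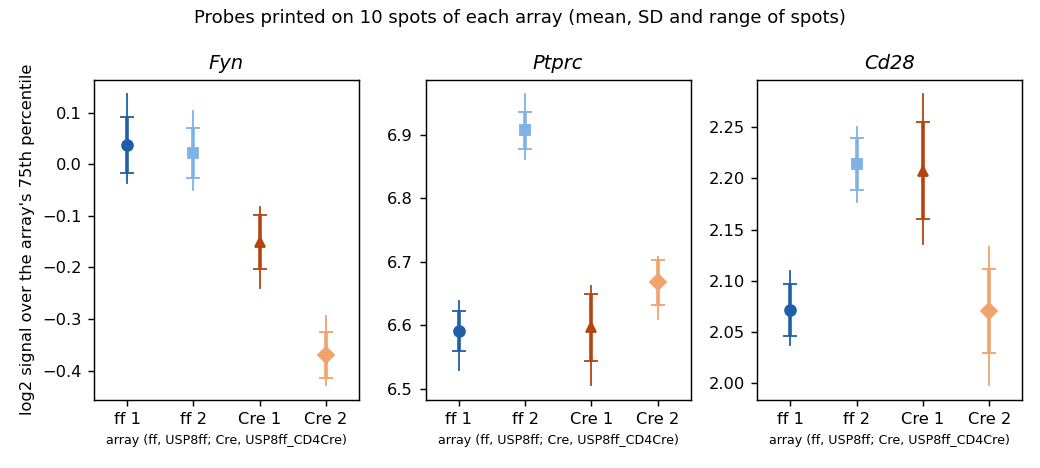
Log2 signal over the array's 75th percentile for the 3 probes printed on 10 spots per array (ff, USP8ff; Cre, USP8ff_CD4Cre); points are means over spots, thick capped bars the standard deviation and thin bars the full range. Fyn spots fall into separate ranges for the 2 genotypes, Ptprc spots set USP8ff replicate 2 apart at 6.91, and Cd28 spots put 1 pool of each genotype high (2.21) and 1 low (2.07).

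Positive mediators and brakes were then set side by side. The 23 measured mediators had a median difference of 0.015, with 11 negative and 12 positive, and the 11 brakes had a median of -0.055, with 6 negative and 5 positive; over all genes the median was 0.021. The median of the mediators was thus 0.070 above that of the brakes. With quantile normalization both medians were negative (-0.037 and -0.099), and with 1 array left out the distance lay between -0.042 and 0.050, so it changed sign. Groups that did not overlap were 4 lower (17.4%) and 2 higher (8.70%) of the mediators, and 3 lower (27.3%) and 0 higher of the brakes, against 16.3% lower and 24.3% higher of all genes.

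On single arrays, the mean of the mediators relative to each gene's own mean was -0.027 and 0.062 in USP8ff and 0.0056 and -0.041 in USP8ff_CD4Cre. That of the brakes was 0.0079 and 0.085 in USP8ff and -0.043 and -0.0503 in USP8ff_CD4Cre. The brakes were lower in both USP8ff_CD4Cre pools than in either control, while the pools of USP8ff stood further from each other than the nearest pools of both groups. Mediators minus brakes came to -0.035 and -0.023 in USP8ff and to 0.048 and 0.0093 in USP8ff_CD4Cre, above the controls in both pools. No p is given for these means, since the members were chosen with results of these arrays known. The brakes include Ubash3b, at -0.62 the largest difference of any member. The order of the class means rests on this gene. With Ubash3b taken out of the brakes, the groups overlap both for the brakes and for mediators minus brakes.

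**Figure D5:**
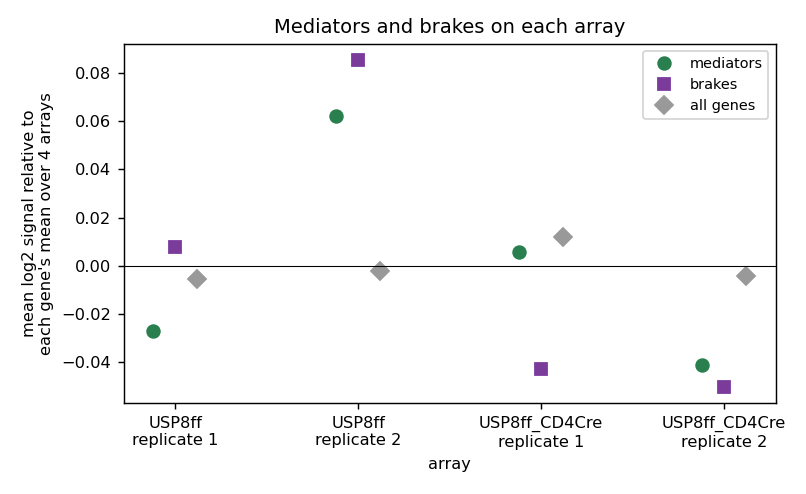
Mean log2 signal of the 23 mediators (circles), the 11 brakes (squares) and all 13062 genes (diamonds) on each array, relative to each gene's mean over the 4 arrays; each array is 1 pool of 2 mice. Mediators and brakes rise together in USP8ff replicate 2 (0.062 and 0.085), while the mean of all genes stays between -0.0055 and 0.012.

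For 29 of 37 members (78.4%) the gap between pools of a group was larger than the difference between the groups, against 72.7% of all genes. The median absolute difference was 0.079, against 0.12 over all genes, and 21 members lay within 0.1 of 0. Of the 37, 19 had a negative difference (51.4%, against 45.2% of all genes), but 28 did with quantile normalization and 24 with the mean of a gene's kept probes. Without USP8ff replicate 1 it was 27, and without USP8ff replicate 2 it was 13. In USP8ff replicate 1, 26 of the 37 members (70.3%) were lower than in USP8ff replicate 2, against 51.2% of all genes.

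Other genes of the pathway, from a list of 73 that also held the CD3 chains, further adaptors, calcium, RAS and PI3-kinase genes, gave a similar picture. Of the 71 measured, 0 passed an adjusted p of 0.05 in limma, and at an unadjusted p of 0.05, 2 were lower and 1 higher, against 3.46% and 3.97% of all genes. There were 32 negative and 39 positive differences, with a median of 0.0077. The smallest p-values belonged to Ikbkg, the regulatory subunit of the NF-kB kinase (-0.42 ± 0.11), and to Itpr1, a calcium channel of the endoplasmic reticulum (-0.47 ± 0.14). Both had an adjusted p of 0.66 in limma. Cblb and Gab2 were not measured. The authors' deposited table, which lists 78 probes, names 0 of the 38 members.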

How the data were processed

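Cy3-labelled cRNA, made from 500 ng of RNA per the labels' protocols, was read on 1-colour Agilent arrays. The header of 1 array gives Feature Extraction 10.7.3.1. The deposited scanner files hold spot intensities before any normalization across arrays. The authors' deposited table gives a fold and a p-value for each probe, by a test that the sources used here do not give. Another deposited file has 4 sample columns that matched no label, and these went unused.

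The processed signal of each spot was divided by its array's 75th percentile over 43379 non-control spots, and log2 was taken. Outlier spots were dropped (17 of 41174 probes lost) and the spots of a probe averaged. The filter on dim probes left 19038 (46.2%), which gave 13062 genes. Names other than the members' came from RefSeq by accession for 26690 probes and from the array design otherwise.

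The comparison used limma 3.58.1 (lmFit, eBayes, no block) under R 4.3.3, with Benjamini-Hochberg adjustment over all genes and a threshold of 0.05; the script was tested on simulated data. An exact permutation test of 2 against 2 arrays cannot go below a two-sided p of 0.33, so none was run. The members and the lists were chosen with earlier results of these data known. Signals on every array are given for the 12 members with the smallest p and for the core genes Lck, Zap70, Lat, Lcp2, Plcg1, Csk, Ptpn6 and Ptprc; genes of the wider pathway were to be named by the 4 smallest p-values, of which 2 are not reported here. Probe positions, on mm9, come from the scanner files. The alternatives were scaling by quantiles or the median, normexp background (offset 50), other filters, the mean of probes, outlier spots kept in, a replicate block, an eBayes trend, other classes for Ptprc, Themis and Cd6, and each array left out. Leaving out local background outliers was chosen after seeing the data. Plots were made with matplotlib 3.10.9 and Python 3.11.15.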

Additional observations from a re-analysis of the deposited data

How the results depend on the processing

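In limma 0 of the 37 members passed adjustment under any alternative run, and Ubash3b had an unadjusted p under 0.05 in all of them. With no filter on dim probes 1 member did (Ubash3b), and with an array left out 1 to 3. The mediator median was -0.037 and the brake median -0.099 with quantile normalization; with an array left out they ranged from -0.063 to 0.035 and from -0.11 to 0.0399, and their distance from -0.042 to 0.0501. With Ptprc and Themis counted as mediators and Cd6 as a brake the distance was 0.018. The cause of these changes was not tested. Quantile normalization turned the sign of 9 members: Lck -0.018, Zap70 -0.024, Lat -0.037, Rasgrp1 -0.055, Cd6 -0.043, Ptpn2 -0.027, Nck1 -0.0083, Sla -0.021 and Sla2 -0.044. The mean of kept probes turned 9: Vav2 -0.028, Rasgrp1 -0.069, Nfatc3 0.016, Prkcq 0.0058, Malt1 -0.061, Ptpn2 -0.17, Nck1 -0.016, Sla -0.055 and Sla2 -0.068. Normexp turned Vav2 (-0.0079) and Ptpn2 (-0.0033). With an array left out, 22 members changed sign in at least 1 case, with ranges of -0.063 to 0.18 (Lck), -0.17 to 0.26 (Lat), -0.0503 to 0.204 (Vav1), -0.0604 to 0.091 (Vav2), -0.27 to 0.041 (Ptprc), -0.024 to 0.0798 (Rasgrp1), -0.0070 to 0.089 (Cd6), -0.075 to 0.067 (Cd28), -0.13 to 0.035 (Nfatc3), -0.033 to 0.031 (Prkcq), -0.0048 to 0.14 (Bcl10), -0.0068 to 0.0396 (Malt1), -0.016 to 0.19 (Sos1), -0.031 to 0.45 (Ptpn6), -0.0029 to 0.071 (Ptpn2), -0.28 to 0.12 (Ubash3a), -0.065 to 0.13 (Nck1), -0.076 to 0.045 (Sh2d1a), -0.056 to 0.029 (Rhoh), -0.39 to 0.072 (Trat1), -0.0066 to 0.0399 (Sla2) and -0.11 to 0.0035 (Dgkz). No member changed sign under the other alternatives run.

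Both groups use replicate numbers 1 and 2. With only 2 pairs the samples share a number and no known origin (correlation across genes of same-numbered deviations 0.32). With that replicate block 0 members were called, 3 had an unadjusted p under 0.05 (Pag1, Txk and Ubash3b), 1338 genes did (10.2%), and every member kept its sign, Ubash3b at -0.62. Without USP8ff_CD4Cre replicate 2 the share of all genes at that p was 3.03%. Arrays give no counting depth; what limited the values was 2 pools per group and, for 8 probes of members, signal too near background to keep.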
